A study of Mus musculus with 6 samples.

Results

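Glucocorticoid response genes are genes whose transcripts follow the level of corticosterone, the main glucocorticoid hormone of mice. A set of 10 was listed by symbol (Fkbp5, Tsc22d3, Zbtb16, Sgk1, Cdkn1a, Klf9, Klf15, Errfi1, Cebpd and Map3k6), at a time when earlier results of these data were known. The list of symbols holds no measured value, but the rule takes each gene's brightest row. It also asks for values with and without sickle replicate 3, because the sickle arrays were known to disagree. Of the 10 genes, 9 had a row with exactly 1 symbol in the array's annotation, 1 row each, among 21506 genes measured. Cdkn1a was not analysed here. RNA came from left ventricle of 3 sickle and 3 control mice, all male and 10 to 14 weeks old, each hybridised to its own Affymetrix Mouse Gene 2.0 ST array. The sickle mice were homozygous for Hbbtm2(HBG1,HBB*)Tow, an engineered human globin locus that gives sickle haemoglobin. The control mice carried Hbbtm3(HBG1,HBB)Tow, a non-sickling form of that locus. Both groups had human alpha-globin in place of the mouse gene (Hbatm1(HBA)Tow) and a mixed B6;129 background. The study asked how gene expression in the ventricle differs between them.

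Glucocorticoids bind the glucocorticoid receptor, which Hsp90 chaperones hold ready in the cytoplasm. The bound receptor moves to the nucleus and acts at DNA sites built from a pair of inverted half-sites. In the heart the hormone acts on cardiomyocytes through this receptor and also through the mineralocorticoid receptor, and its blood level swings with the time of day and with stress. The labels give no time of day for tissue collection. They describe recordings under anaesthesia without saying whether the mice used for RNA underwent them.

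The values are log2 intensities after RMA, a procedure that corrects background, scales the arrays to 1 distribution and summarises the probes of a transcript, so a difference of 1 is 2-fold. All 8 cardiomyocyte markers were bright in every array, with a summed log2 level of 15.83 to 15.97 in sickle and 15.93 to 15.95 in control. Sickle replicate 3 stood apart on the first principal component, with a score of 43.3 against -15.1 to -2.31 in the other 5 arrays. The 8 macrophage and monocyte markers summed to 11.14, 11.35 and 12.42 in sickle replicates 1, 2 and 3, against 11.01 to 11.18 in control. The 8 fibroblast markers summed to 13.01, 13.00 and 14.42, against 12.87 to 13.06 in control. Their part in the values below was not tested, and in tissue RNA more cells of a type cannot be told apart from more RNA per cell. Control replicate 3 held more atrial muscle transcript, with a sum of 9.18 over 4 markers, against 6.52 and 6.72 in the other control arrays and 6.58 to 6.79 in sickle. The differences of the 9 genes, and the counts of each pathway list below, are given with and without sickle replicate 3.

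The 9 genes did not differ between sickle and control ventricles beyond the spread between arrays, but several of them differed widely from mouse to mouse within each group. Sickle replicate 3 was the highest of all 6 arrays for 7 of the 9 genes, against 23.9% of all genes. Control replicate 1 was the lowest control array for 8 of the 9, against 34.2% of all genes. Of the 9 genes, 0 passed limma's test at an adjusted p of 0.05, where 0.181% of all genes passed, and 0 reached an unadjusted p under 0.05, where 8.69% of all genes did. In none of the 9 did the sickle arrays separate from the control arrays, where 16.0% of all genes had such a separation. The mean was higher in sickle for 5 of the 9 genes, against 48.4% of all genes. The median difference, sickle minus control, was 0.020 on the log2 scale, against -0.0067 over all genes.

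**Figure D1:**
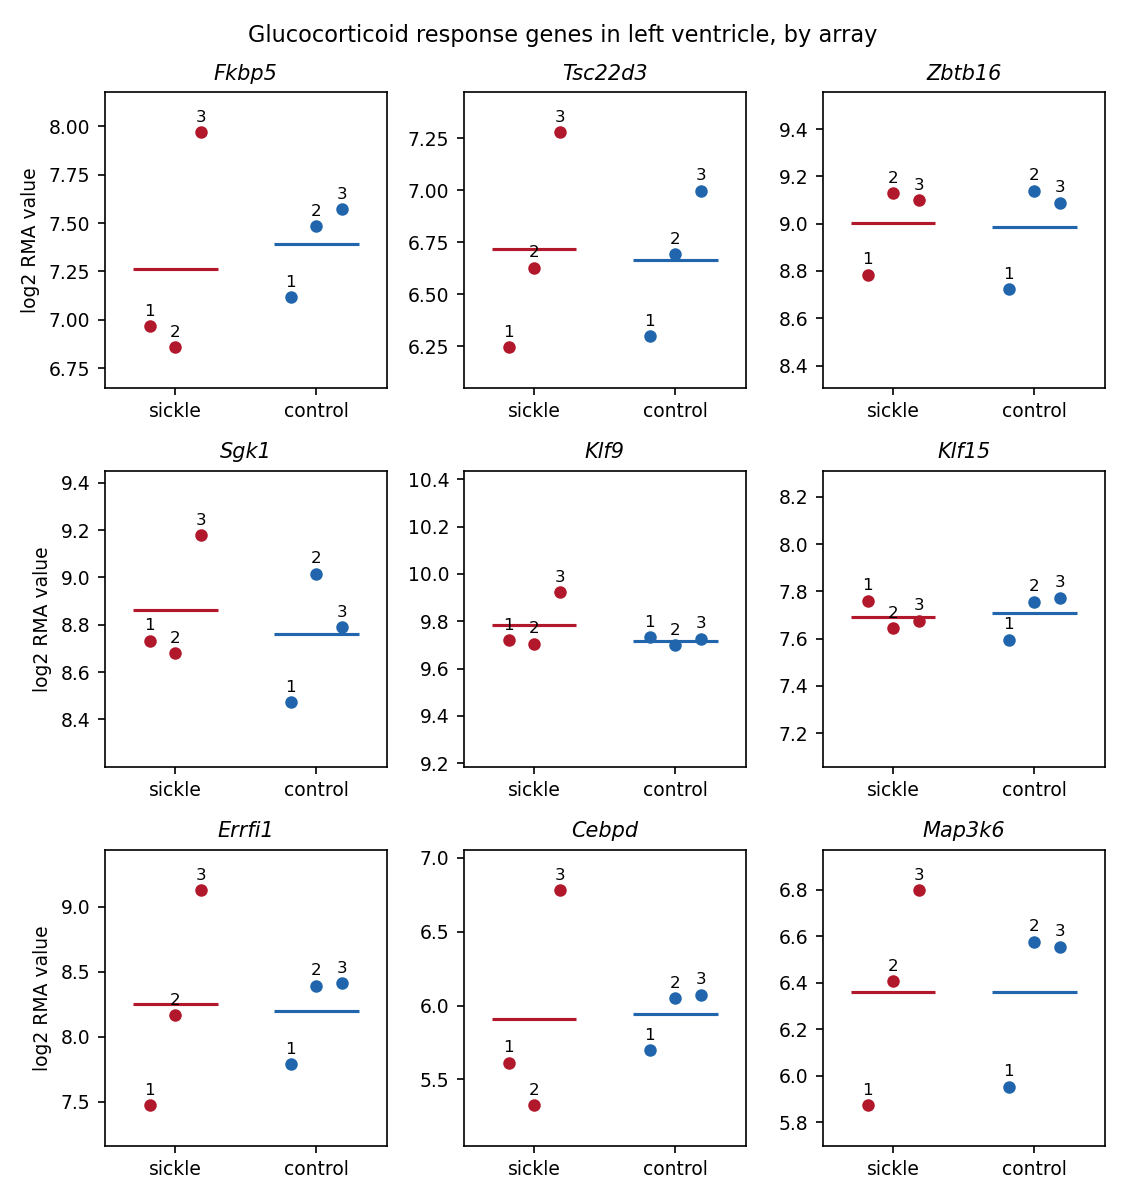
Log2 RMA values of the 9 glucocorticoid response genes in each array, with sickle on the left and control on the right of each panel. Points are mice, numbers are replicate numbers, horizontal lines are group means (n = 3) and the vertical scale differs between panels. Sickle replicate 3 is the highest of the 6 arrays in 7 panels, Zbtb16 and Klf15 being the exceptions.

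Fkbp5 encodes a co-chaperone that binds Hsp90 in the receptor complex and lowers the receptor's affinity for hormone, so it acts as a feedback inhibitor. It had 6.97, 6.86 and 7.97 in sickle replicates 1, 2 and 3, against 7.12, 7.48 and 7.57 in control replicates 1, 2 and 3. The first 2 sickle arrays lay below every control array and the third lay above every one. The means were 7.26 ± 0.61 in sickle and 7.39 ± 0.24 in control (SD, n = 3 each). The difference was -0.13 ± 0.29 (SE), with a 95% interval from -0.80 to 0.54 and a limma adjusted p of 0.916. Without sickle replicate 3 it was -0.48 ± 0.15 (95% interval -0.84 to -0.12, limma unadjusted p = 0.0161, adjusted p = 0.444).

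Tsc22d3 encodes GILZ, a leucine zipper protein that carries part of the anti-inflammatory action of glucocorticoids. Its values were 6.25, 6.63 and 7.28 in sickle, against 6.30, 6.69 and 7.00 in control. The groups overlapped along their whole length, each with replicate 1 at its low end and replicate 3 at its high end. Replicate numbers of the 2 groups are not known to mark shared litters or days. The means were 6.72 ± 0.52 in sickle and 6.66 ± 0.35 in control, a difference of 0.05 ± 0.28 (limma adjusted p = 0.964). Leaving out sickle replicate 3 gave -0.23 ± 0.22 (limma adjusted p = 0.791).

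Sgk1 encodes a serine/threonine kinase that raises the activity of sodium and potassium channels and transporters. It had 8.73, 8.68 and 9.18 in sickle, against 8.47, 9.02 and 8.79 in control. The highest value was a sickle array and the lowest a control array, and the others interleaved. The difference was 0.10 ± 0.18 (95% interval -0.32 to 0.53, limma adjusted p = 0.884), and -0.05 ± 0.16 without sickle replicate 3 (limma adjusted p = 0.945). The 250 bases before 1 of the 6 annotated starts of Sgk1 are shown because they hold the full receptor palindrome, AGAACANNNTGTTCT, which reads the same on both strands. They lie at chr10:21993640-21993889 on the plus strand of GRCm38.p6 (RefSeq), inside the gene's span, and the capitals mark the palindrome, whose first base lies 189 bases before the start.
Sgk1: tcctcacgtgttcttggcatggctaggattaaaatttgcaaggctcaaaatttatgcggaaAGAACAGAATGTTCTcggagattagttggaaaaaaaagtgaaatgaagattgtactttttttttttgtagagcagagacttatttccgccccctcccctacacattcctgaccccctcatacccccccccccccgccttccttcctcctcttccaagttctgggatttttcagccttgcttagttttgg
That palindrome was present in 3 of 32851 windows of 300 bases around annotated starts (0.00913%), and in 1 of the 15 windows of the 7 members that the RefSeq table holds. The half-site, AGAACA or TGTTCT, which the palindrome holds as a pair, was present in 19% of all windows and in 4 of the 15 member windows, 3 of the 6 of Sgk1 and 1 of the 3 of Tsc22d3. A match describes letters in a window and does not show binding.

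The other kinase of the set, Map3k6, encodes a MAP kinase kinase kinase of the stress-activated pathways. It had 5.87, 6.40 and 6.80 in sickle, against 5.95, 6.58 and 6.55 in control. Replicate 1 of each group was well below its group mates. The means were the same to the second decimal, 6.36 ± 0.46 in sickle and 6.36 ± 0.35 in control, with a difference of -0.0027 ± 0.26 (limma adjusted p = 0.998). It was -0.22 ± 0.24 without sickle replicate 3 (limma adjusted p = 0.808).

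Errfi1 encodes Mig6, a protein that binds and blocks the kinase of the EGF receptor. It spanned the widest range of the set, with 7.47, 8.17 and 9.13 in sickle, against 7.79, 8.39 and 8.41 in control. The lowest and the highest of the 6 arrays were both sickle arrays. The means were 8.26 ± 0.83 in sickle and 8.20 ± 0.35 in control, a difference of 0.06 ± 0.39 (95% interval -0.84 to 0.96, limma adjusted p = 0.975). Leaving out sickle replicate 3 gave -0.38 ± 0.26 (limma adjusted p = 0.701).

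Cebpd encodes C/EBP-delta, a leucine zipper transcription factor of the acute phase response that both glucocorticoids and interleukin-6 induce. It had 5.61, 5.32 and 6.78 in sickle, against 5.70, 6.05 and 6.07 in control. As with Fkbp5, 2 sickle arrays lay below the control range and 1 above it. The difference was -0.03 ± 0.34 over 6 arrays (limma adjusted p = 0.985), and -0.47 ± 0.15 without sickle replicate 3 (95% interval -0.84 to -0.11, limma unadjusted p = 0.0187, adjusted p = 0.449).

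Of the zinc finger transcription factors, Zbtb16, also called PLZF and a repressor, had 8.78, 9.13 and 9.10 in sickle, against 8.72, 9.14 and 9.09 in control. The values of the 2 groups matched closely, again with replicate 1 lowest in each. The difference was 0.02 ± 0.15 (limma adjusted p = 0.978), and -0.03 ± 0.17 without sickle replicate 3 (limma adjusted p = 0.973).

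Klf9 and Klf15 belong to the Krüppel-like family and act on metabolic genes, Klf15 on amino acid and lipid use in heart and skeletal muscle. Klf9 had 9.72, 9.70 and 9.92 in sickle, against 9.73, 9.70 and 9.73 in control. Its 5 arrays other than sickle replicate 3 lay within a narrow band. The difference was 0.06 ± 0.10 (95% interval -0.16 to 0.29, limma adjusted p = 0.867), and -0.0061 ± 0.09 without that array (limma adjusted p = 0.989). Klf15 had 7.76, 7.65 and 7.68 in sickle, against 7.60, 7.76 and 7.77 in control. It was the 1 member with sickle replicate 3 below the mean of sickle replicates 1 and 2. The difference was -0.015 ± 0.10 (95% interval -0.24 to 0.21, limma adjusted p = 0.974), and -0.0055 ± 0.10 without sickle replicate 3 (limma adjusted p = 0.992).

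The bases before the starts of Fkbp5 and Klf15 are set side by side because one gene varied widely between mice and the other hardly at all. Both hold the E-box CACGTG, a palindrome bound by clock proteins among others. The Fkbp5 stretch is chr17:28486150-28486399 on the minus strand and the Klf15 stretch is chr6:90462326-90462575 on the plus strand of GRCm38.p6 (RefSeq), 250 bases each, with E-boxes in capitals.
Fkbp5: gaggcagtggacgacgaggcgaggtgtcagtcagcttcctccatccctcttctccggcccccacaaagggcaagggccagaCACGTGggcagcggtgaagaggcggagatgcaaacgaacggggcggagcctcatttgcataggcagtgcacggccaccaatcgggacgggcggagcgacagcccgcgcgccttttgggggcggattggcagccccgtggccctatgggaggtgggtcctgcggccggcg
Klf15: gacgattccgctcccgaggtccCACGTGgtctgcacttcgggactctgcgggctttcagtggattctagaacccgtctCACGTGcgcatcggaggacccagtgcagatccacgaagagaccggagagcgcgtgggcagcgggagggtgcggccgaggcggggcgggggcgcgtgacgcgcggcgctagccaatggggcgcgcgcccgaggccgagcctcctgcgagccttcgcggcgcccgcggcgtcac
The Fkbp5 E-box begins 169 bases before the start, and those of Klf15 begin 228 and 172 bases before it. Another E-box of Klf15 begins 3 bases before the start, runs across it and is not capitalised. An E-box was present in 7.15% of all windows, and also in the Sgk1 window printed above, where it begins 246 bases before the start and overlaps a separate half-site that begins 242 bases before it. The half-site was not found in the Fkbp5 and Klf15 windows. The cAMP response element TGACGTCA was present in 1.79% of all windows and in 1 window of Errfi1. In all, 8 motifs were searched on both strands, and the stretches shown were chosen after the matches were seen. Of the other 4 motifs, the C/EBP site TTGCGCAA (0.183% of all windows) and TGACGTAA (0.499%) were in no member's window. CCAAT (37.4%) was in windows of Errfi1, Fkbp5, Klf15, Klf9 and Sgk1, and TATAAA (13.6%) in windows of Errfi1 and Sgk1.

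The exact two-sided permutation p over the 6 arrays lay between 0.7 and 1 for the 9 genes, and 3 against 3 arrays allow none below 0.1. For all 9 genes the difference between group means was smaller than the within-group SD. With 3 arrays per group, the 95% intervals of the difference reached from -0.84 to 0.96 for Errfi1, and were narrowest for Klf15 and Klf9. Differences within these intervals were not resolved by 3 mice a group.

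The spread within groups ran from wide to narrow over the 9 genes. The within-group SD (the square root of the mean of the 2 group variances) was 0.64 for Errfi1, 0.56 for Cebpd, 0.47 for Fkbp5, 0.44 for Tsc22d3 and 0.41 for Map3k6. These 5 SDs were larger than those of 99.4%, 98.9%, 97.8%, 97.5% and 96.6% of all genes. Sgk1 (0.27) and Zbtb16 (0.21) followed, above 85.8% and 71.6% of all genes. Klf9 (0.09) and Klf15 (0.08) varied less than most genes, above 17.0% and 14.5%.

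The spread had the same shape in most of the set. Sickle replicate 3 exceeded the mean of sickle replicates 1 and 2 by over 1.5-fold for 5 of the 9 genes, against 5.32% of all genes. The ratio was 2.48 for Cebpd, 2.47 for Errfi1, 2.08 for Fkbp5, 1.79 for Tsc22d3 and 1.58 for Map3k6. Control replicate 1 was below the mean of control replicates 2 and 3 by over 1.2-fold for 7 of the 9 genes, against 9.04% of all genes, and the ratio reached 1.53 for Errfi1 and for Map3k6. Both features, sickle replicate 3 highest in its group and control replicate 1 lowest in its group, held for 6 of the 9 genes, against 13.8% of all genes. Both also held for 7 of 8 macrophage and monocyte markers, 5 of 8 fibroblast markers and 7 of 9 C/EBP and interleukin-6 genes. Of the lists described below, they held together for 12 of 23 other glucocorticoid targets and 4 of 6 smooth muscle and pericyte markers. The counts were 3 of 9 EGF receptor family genes and ligands, 3 of 14 clock genes, 2 of 10 p53 targets and 2 of 6 neutrophil markers. They were 1 of 6 endothelial markers and 1 of 10 receptor, steroid activation and chaperone genes. Cardiomyocyte, erythroid, lymphocyte, adipocyte and atrial muscle markers and the 12 Klf15-linked genes had 0. The median of the 9 genes relative to the control mean was -0.33, -0.03 and 0.44 in sickle replicates 1, 2 and 3, against -0.27, 0.11 and 0.13 in control replicates 1, 2 and 3. These thresholds and this description were set after the values were seen, and the shares were not tested.

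**Figure D2:**
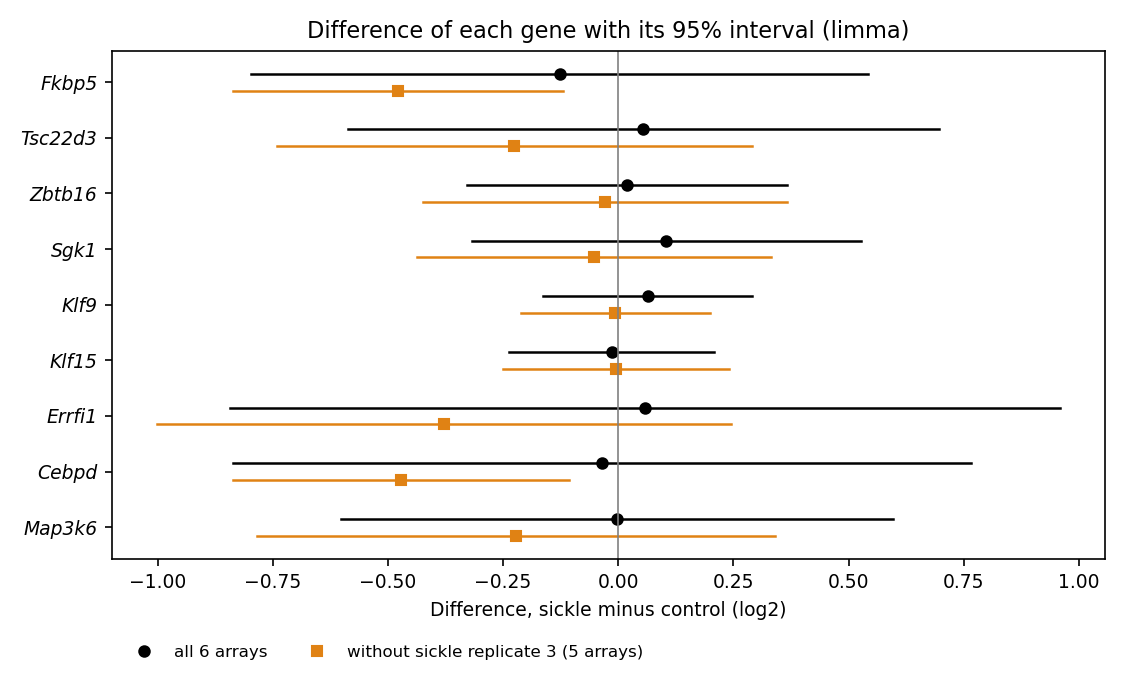
Difference of each glucocorticoid response gene, sickle minus control, on the log2 scale, with its 95% interval from limma. Circles use all 6 arrays and squares leave out sickle replicate 3, which moves 8 of the 9 genes to the left and puts all 9 below 0.

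Without sickle replicate 3, all 9 differences were below 0, against 49.8% of all genes, and the median was -0.22, against 0.00072 over all genes. They ran from -0.48 for Fkbp5 to -0.0055 for Klf15. In limma 0 of the 9 passed the adjusted test, where 0.0976% of all genes passed, and 2 of the 9 had an unadjusted p under 0.05, where 9.20% of all genes did. The same 2 genes, Fkbp5 and Cebpd, had both remaining sickle arrays below every control array, a separation seen in 13.4% of all genes. Single control arrays moved the set as well. Leaving out control replicate 1 left 1 of the 9 genes higher in sickle, with a median of -0.13. Leaving out control replicate 2 or control replicate 3 left 8 of 9 higher, with medians of 0.07 in both cases, and leaving out sickle replicate 1 left 8 of 9 higher, with a median of 0.13. Leaving out sickle replicate 2 left 7 of 9 higher, with a median of 0.10.

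The transcript of the receptor itself overlapped between the groups. Nr3c1, the glucocorticoid receptor gene, had 8.89, 9.03 and 8.95 in sickle, against 8.98, 8.87 and 8.92 in control. The difference was 0.03 ± 0.09 (95% interval -0.18 to 0.25, limma adjusted p = 0.929), and sickle replicate 3 and control replicate 1 did not stand out. Nr3c2, the mineralocorticoid receptor gene, differed by -0.11 ± 0.10 (limma adjusted p = 0.764).

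Upstream of the receptor, Hsd11b1 encodes the enzyme that regenerates active corticosterone inside cells. It had 6.55, 6.55 and 6.69 in sickle, against 7.01, 7.17 and 6.75 in control. All 3 sickle arrays lay below all 3 control arrays, sickle replicate 3 included, though the gap between the nearest arrays was small. The difference was -0.38 ± 0.13 (95% interval -0.67 to -0.09, limma unadjusted p = 0.0169) and did not pass over all genes (adjusted p = 0.492). Without sickle replicate 3 it was -0.43 ± 0.13 (limma adjusted p = 0.446).

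Hsp90aa1 encodes the inducible Hsp90 that holds the receptor. It had 9.33, 9.77 and 9.37 in sickle, against 8.42, 8.78 and 9.04 in control. The groups did not overlap, and the difference was 0.74 ± 0.18 (limma unadjusted p = 0.00420, adjusted p = 0.375). Stip1, which links Hsp70 to Hsp90, had 9.54, 9.65 and 9.17 in sickle, against 9.77, 9.72 and 9.78 in control, a difference of -0.30 ± 0.13 (limma adjusted p = 0.583). Of the 10 receptor, steroid activation and chaperone genes with a row, of 15 listed, 0 passed in either direction over all genes and 2 had an unadjusted p under 0.05, where 8.69% of all genes did. Of the 10, 2 were higher and 8 lower in sickle with a median of -0.10, against 48.4% of all genes higher. With sickle replicate 3 left out, 4 were higher and 6 lower with a median of -0.025, against 50.2% of all genes higher. Then 2 had an unadjusted p under 0.05, where 9.20% of all genes did.

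**Figure D3:**
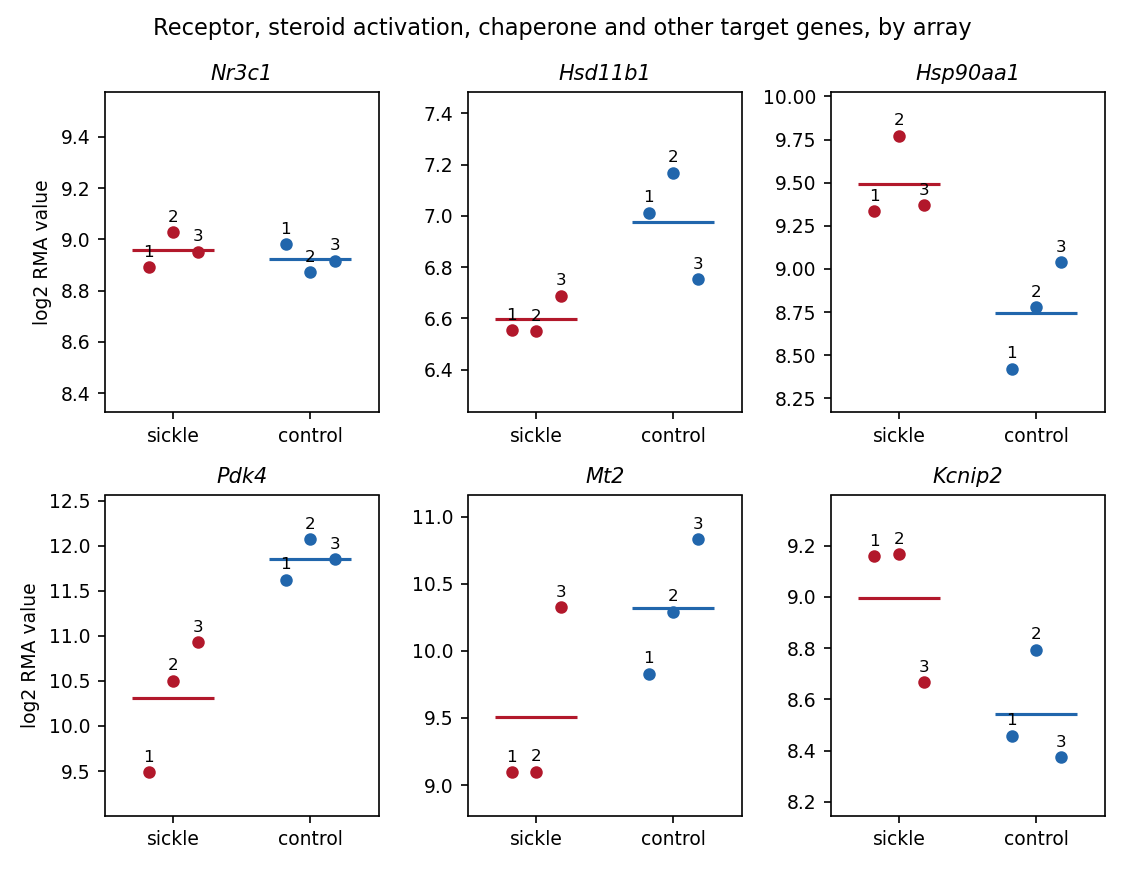
Log2 RMA values of Nr3c1, Hsd11b1, Hsp90aa1, Pdk4, Mt2 and Kcnip2 in each array, with sickle on the left and control on the right of each panel. Points are mice, numbers are replicate numbers, lines are group means (n = 3), and the vertical scale differs between panels. Hsd11b1, Hsp90aa1 and Pdk4 show no overlap between groups, while the groups of Nr3c1 overlap.

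Another 25 genes known as glucocorticoid targets were listed, of which 23 had a row. In either direction 0 passed over all genes in limma and 2 of the 23 had an unadjusted p under 0.05, where 8.69% of all genes did. The list had 12 higher and 11 lower with a median of 0.04, against 48.4% of all genes higher. On the 5 arrays other than sickle replicate 3, 9 were higher and 14 lower with a median of -0.07, against 50.2% of all genes higher. There 0 passed and 5 had an unadjusted p under 0.05, where 9.20% of all genes did. Sickle replicate 3 was the highest sickle array for 17 of the 23 and control replicate 1 the lowest control array for 15, where 35.2% and 34.2% of all genes had those orders. Set against the control mean, sickle replicates 1, 2 and 3 had list medians of -0.17, -0.05 and 0.23, against -0.12, 0.06 and 0.02 in control.

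Pdk4 encodes a kinase that inactivates pyruvate dehydrogenase, and it answers to glucocorticoids, fasting and fatty acids. It had 9.49, 10.50 and 10.93 in sickle, against 11.62, 12.07 and 11.85 in control. Every sickle array was below every control array, with sickle replicate 3 the highest sickle array and control replicate 1 the lowest control array. The difference was -1.54 ± 0.33 (limma unadjusted p = 0.00197, adjusted p = 0.283), and -1.85 ± 0.29 without sickle replicate 3 (limma adjusted p = 0.138). Sult1a1, a sulfotransferase, was also separate, with 8.19, 7.90 and 8.55 in sickle, against 8.55, 8.79 and 8.67 in control. Sickle replicate 3 and control replicate 1 nearly met, and the difference was -0.46 ± 0.17 (limma adjusted p = 0.527). Mt2, a metallothionein that binds zinc and copper, had 9.10, 9.10 and 10.33 in sickle, against 9.83, 10.29 and 10.83 in control, a difference of -0.81 ± 0.37 (limma adjusted p = 0.592). Without sickle replicate 3, Mt2 differed by -1.22 ± 0.26 with no overlap (limma adjusted p = 0.270).

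Partner genes of single members were read in the same way. For Klf15, the list held 12 genes, mostly of amino acid breakdown, with Kcnip2, a potassium channel subunit that Klf15 controls in mouse heart, and all 12 had a row. Kcnip2 had 9.16, 9.17 and 8.67 in sickle, against 8.46, 8.79 and 8.37 in control. The difference was 0.46 ± 0.17 (limma adjusted p = 0.549), with sickle replicate 3 inside the control range. Leaving out that array gave 0.62 ± 0.14 with no overlap (limma unadjusted p = 0.00330, adjusted p = 0.294). Hadh, of fatty acid oxidation, differed by -0.24 ± 0.12 and Prodh, proline dehydrogenase, by 0.16 ± 0.09, neither past the test. The list had 3 higher and 9 lower with a median of -0.076, against 48.4% of all genes higher. Of the 12, 0 passed and 1 had an unadjusted p under 0.05, where 8.69% of all genes did. Sickle replicate 3 was the lowest sickle array for 10 of the 12, against 8883 of all 21506 genes. Without sickle replicate 3 the direction turned, to 9 higher and 3 lower with a median of 0.14, against 50.2% of all genes higher. Again 0 passed and 1 had an unadjusted p under 0.05, where 9.20% of all genes did.

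For Cebpd, 9 genes of the C/EBP and interleukin-6 response were listed and measured. The counts were 6 higher and 3 lower with a median of 0.04, against 48.4% of all genes higher. Of the 9, 0 passed and 0 had an unadjusted p under 0.05, where 8.69% of all genes did. Leaving out sickle replicate 3 turned the direction, to 3 higher and 6 lower with a median of -0.056, against 50.2% of all genes higher. Then 0 passed, and Timp1 and Serpina3n had an unadjusted p under 0.05, where 9.20% of all genes did. Timp1 was named after its value was seen. Over all arrays, sickle replicate 3 was the highest sickle array for all 9, against 35.2% of all genes. Set against the control mean, sickle replicates 1, 2 and 3 had list medians of -0.07, 0.01 and 0.80, against -0.13, 0.00 and 0.18 in control. Cebpa, a family member of Cebpd, differed by 0.47 ± 0.24, Osmr, the oncostatin M receptor, by 0.30 ± 0.24, and Serpina3n, an acute phase protease inhibitor, by -0.66 ± 0.57, none past the test. Leaving out sickle replicate 3 gave 0.20 ± 0.17 for Cebpa, 0.03 ± 0.15 for Osmr and -1.40 ± 0.23 for Serpina3n (limma unadjusted p = 0.000583, adjusted p = 0.165). Serpina3n had 8.75, 8.02 and 10.59 in sickle, against 9.87, 9.53 and 9.96 in control, with 2 sickle arrays below and 1 above the control range as for Cebpd.

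For Errfi1, 9 of 10 EGF receptor family genes and ligands had a row, with 4 higher and 5 lower, against 48.4% of all genes higher. Of these 9, 0 passed and 1 had an unadjusted p under 0.05, where 8.69% of all genes did. With sickle replicate 3 left out, 1 was higher and 8 lower, and 0 had an unadjusted p under 0.05. In that fit 50.2% of all genes were higher and 9.20% had such a p. Over all arrays, Erbb3, a receptor of the family, differed by -0.24 ± 0.10 (limma unadjusted p = 0.0461, adjusted p = 0.572), and the ligand genes Btc and Tgfa by -0.19 ± 0.10 and -0.14 ± 0.09. For these 3 of the 9 genes every sickle array was below every control array, where 16.0% of all genes separated in either direction. Tgfa was dim, at 4.78 to 4.99 over the 6 arrays, and Btc had 5.65 to 6.04, where the median brightness of all genes was 5.69. For Cdkn1a, which is also a target of p53, 10 of 12 other p53 targets had a row and 0 passed. Of the 10, 7 were higher, against 48.4% of all genes, and 1 had an unadjusted p under 0.05, against 8.69%. Again 7 were higher without sickle replicate 3, against 50.2% of all genes, and 0 had an unadjusted p under 0.05, against 9.20%. Eda2r, a death receptor, differed by 0.46 ± 0.17 (limma unadjusted p = 0.0285, adjusted p = 0.537), Plk2, a kinase, by 0.32 ± 0.14 and Phlda3, an inhibitor of Akt, by 0.21 ± 0.11. Eda2r was also dim, at 4.70 to 5.57 over the 6 arrays.

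Clock genes were listed because the hormone follows the time of day. Of 15, 14 had a row and 0 passed over all genes, though 7 of the 14 had an unadjusted p under 0.05 in limma, where 8.69% of all genes did. Per3, a period gene, had 7.06, 7.30 and 6.76 in sickle, against 6.45, 6.16 and 6.42 in control (difference 0.70 ± 0.16, limma unadjusted p = 0.00225, adjusted p = 0.293). Dbp, a transcription factor driven by the clock, differed by 0.44 ± 0.12 (adjusted p = 0.427) and Ciart, a repressor of the clock, by 0.60 ± 0.18 (adjusted p = 0.441). For all 3 the sickle arrays were above the control arrays. The groups did not overlap for 7 of the 14 clock genes, 5 higher and 2 lower in sickle, against 16.0% of all genes. The 2 lower genes were Arntl, at -0.54 ± 0.23 (limma adjusted p = 0.567), and Clock, at -0.20 ± 0.09 (limma adjusted p = 0.585). Both were named after their values were seen. When sickle replicate 3 was left out, 5 of the 14 had an unadjusted p under 0.05 in limma and 9 were higher. Of all genes, 9.20% and 50.2% did so in that fit.

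**Figure D4:**
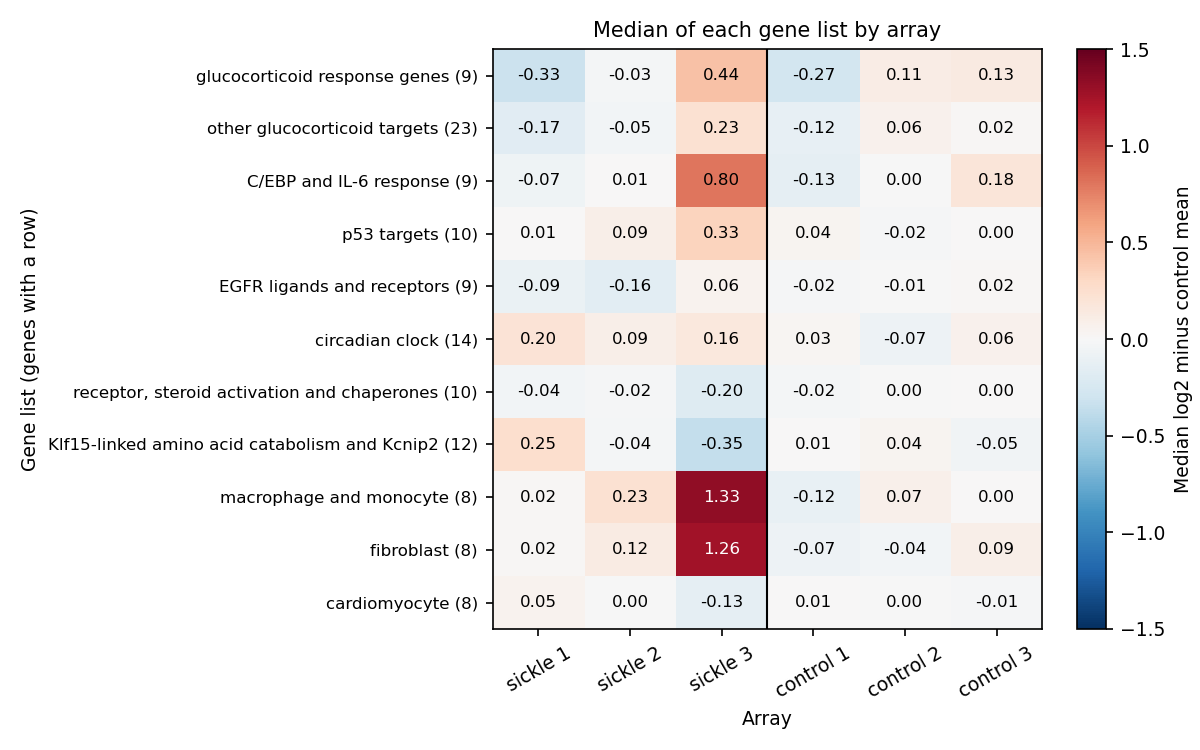
Median of each gene list in each array, as log2 value minus the control mean of the same gene, with the number of genes with a row in brackets. Sickle arrays are left of the vertical line and control arrays right of it. The glucocorticoid response genes run from -0.33 in sickle replicate 1 to 0.44 in sickle replicate 3, and the macrophage and fibroblast markers are highest in sickle replicate 3, at 1.33 and 1.26.

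The arrays that set the glucocorticoid response genes apart were set beside the markers of other cells. Sickle replicate 3 was high for macrophage, monocyte and fibroblast markers, as given above. Control replicate 1, the low control array, was at the low end of the control range for macrophage markers (11.01) and fibroblast markers (12.87), by a small margin. The 7 erythroid markers with a row summed to 12.08, 12.66 and 12.44 in sickle replicates 1, 2 and 3, against 10.62 to 10.80 in control. The 5 adipocyte markers with a row summed to 6.95 to 7.26 in sickle and 6.96 to 7.25 in control. Neutrophil markers summed to 6.06 to 6.21 in sickle and 5.95 to 6.48 in control. Endothelial markers summed to 12.78 to 12.82 in sickle and 12.65 to 12.80 in control. Smooth muscle and pericyte markers summed to 12.76, 12.87 and 13.04 in sickle replicates 1, 2 and 3, against 12.69, 12.76 and 12.73 in control, so that sickle replicate 3 was highest and control replicate 1 lowest. Sickle replicate 3 was the lowest sickle array for all 8 cardiomyocyte markers, against 8883 of all 21506 genes. Lymphocyte markers summed to 7.86 to 8.10 in sickle and 7.21 to 7.42 in control. The part of these cells in the spread of the glucocorticoid response genes was not tested.

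Genes with the profile most like a member were named for the pair of members with the largest differences, Fkbp5 and Sgk1. Likeness was the root mean square difference over the 6 arrays after each gene was centred on its own mean. Nearest to Fkbp5 were Gm11568 (0.09), Fhl1, a LIM domain protein of muscle (0.10), and Dpep1, a dipeptidase (0.10), where the median gene stood at 0.42. Gm11568 was very dim, at 1.98 to 2.89 over the 6 arrays, where the median brightness of all genes was 5.69. Nearest to Sgk1 were Ptpn1, a tyrosine phosphatase (0.05), Pf4, a platelet chemokine (0.06), and Gm5784 (0.06), where the median gene stood at 0.28. Genes picked as nearest stand closer than the median gene by construction, so that contrast is not a test. Among the 9 genes themselves, Fkbp5 and Cebpd stood 0.11 apart, and Tsc22d3 and Map3k6 0.13. Klf9 and Klf15 also stood 0.11 apart, but both varied little, so that distance does not show a shared order of arrays. Klf9 was highest in sickle replicate 3 and Klf15 in control replicate 3. Errfi1 and Klf15 were farthest apart (0.53).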

How the data were processed

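Left ventricular RNA of 3 sickle and 3 control mice was measured on 1 array per mouse. The deposited values were on the log2 scale after RMA, which the submitters' processing notes name without a version. That scale was inferred from the range of the values. Its settings, scan dates and batches were not given in the sources. Of 25293 rows, 22030 had exactly 1 symbol, 685 had several and 2578 had none in the array platform annotation. The brightest row by mean over the 6 arrays stood for each of 21506 genes, with no filter on dim genes. Limma 3.58.1 in R 4.3.3 (lmFit, eBayes, group as the only term, two-sided, with 4 residual degrees of freedom and 3.61 prior ones) was run across all 21506 genes with Benjamini-Hochberg adjustment at 0.05. Differences are sickle minus control, errors of differences are moderated SEs, and errors of means are SDs. Each array is labelled as its own mouse, with no litter or day given, and the number of arrays limits the precision. Alternatives were leaving out each array, array weights, an intensity trend, a filter on dim genes, second quantile normalisation, median centring, the mean over a gene's rows, an ordinary test and the replicate number as a block.

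The members and gene lists were chosen with earlier results of these data known. Named were all members, Nr3c1, Nr3c2, Hsd11b1 and Kcnip2, from each other list the 3 genes with the smallest p, the nearest profiles, and marker genes as sums. Genes named outside these choices are marked as named or chosen after their values were seen. All 159 list genes with a row were found in the RefSeq gene table of GRCm38.p6. Promoter windows (250 bases before to 50 after a start) came from RefSeq on GRCm38.p6, which held none for Zbtb16 and Cebpd. The fit was checked on made-up values with known changes. Their noise was drawn independently for each gene and array, so the check does not cover an outlying array such as sickle replicate 3. Figures were drawn with matplotlib 3.10.9.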

Additional observations from a re-analysis of the deposited data

How the results depend on the processing

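The 9 genes gave 0 calls under each of the 14 alternatives (6 leaving out an array, 8 others), with adjusted p of at least 0.444. Leaving out 1 array at a time, the number of members higher in sickle ran from 0 (without sickle replicate 3) to 8, their median difference from -0.22 to 0.13, and the genes called among all tested from 4 to 36. Of the 54 single-gene differences in those fits, 22 changed sign. The ranges were -0.48 to 0.077 for Fkbp5, -0.23 to 0.29 for Tsc22d3, -0.11 to 0.13 for Zbtb16, -0.053 to 0.23 for Sgk1, -0.0061 to 0.10 for Klf9, -0.071 to 0.018 for Klf15, -0.38 to 0.45 for Errfi1, -0.47 to 0.26 for Cebpd and -0.22 to 0.24 for Map3k6. The intensity trend, dim-gene filter, replicate block, mean over rows and ordinary test left each member's difference unchanged by construction. Only array weights, second quantile normalisation and median centring could change a sign. Over these other 8 settings together, 69 of 72 kept their sign. The 3 that did not were Tsc22d3 (-0.13), Zbtb16 (-0.031) and Errfi1 (-0.25) with array weights, which gave sickle replicate 3 a weight of 0.358, the lowest. Over all genes tested, 39 were called, against 12 with the replicate number as a block and 0 in the ordinary test without eBayes, which had 1740 genes and 0 members at an unadjusted p under 0.05. The replicate block changed no call of a member (smallest adjusted p 0.877), and the cause of the lower counts was not tested. Same-numbered arrays correlated by 0.11, -0.05 and 0.05 in their deviations across genes, so the numbers were not taken as pairs, and not every array correlated best with its own number.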

Other observations

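The order of arrays seen in Fkbp5 and Cebpd was also that of Lcn2 and Timp1, both chosen after their values were seen. Lcn2, lipocalin 2, had 6.76, 6.12 and 8.45 in sickle replicates 1, 2 and 3, against 7.08, 7.97 and 8.09 in control. Timp1, an inhibitor of metalloproteinases, had 5.79, 5.60 and 7.98 in sickle, against 6.49, 6.61 and 6.97 in control. In both genes sickle replicates 1 and 2 were below every control array and sickle replicate 3 above every one. The first of these features was seen in 13.4% of all genes. Lcn2 was on the list of other glucocorticoid targets and Timp1 on the C/EBP and interleukin-6 list. The limma difference was -0.60 ± 0.56 for Lcn2 and -0.24 ± 0.57 for Timp1 over 6 arrays. Without sickle replicate 3 it was -1.28 ± 0.33 (adjusted p = 0.353) for Lcn2 and -0.998 ± 0.16 (adjusted p = 0.140) for Timp1.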
